A study of Mus musculus with 30 samples.

Results

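The genes examined encode the mitochondrial respiratory chain and the ATP synthase. They were taken as every gene symbol beginning with Ndufa, Ndufb, Ndufc, Ndufs, Ndufv, Uqcr, Cox4i, Cox5, Cox6, Cox7, Cox8 or Atp5, together with Sdha, Sdhb, Sdhc, Sdhd and Cyc1, provided that the array carried a probe set for that gene alone. This gave 90 genes among 22180 tested. They comprised 32 subunits of complex I, 4 of complex II, 8 of complex III, 10 of complex IV and 17 of complex V, so that 71 were subunits of the general machinery. The rest were 9 assembly factors and related genes, 8 isoforms restricted to a tissue or condition, and 2 pseudogenes. Ndufa4 was counted with complex IV, where its product resides despite its complex I name. Another 9 symbols, including Cox6c, Ndufb2, Ndufs6 and Uqcr10, shared their probe sets with other genes and were left out.

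The study profiled whole lungs of C57BL/6 mice, either wild type (WT) or lacking Zmpste24, the metalloprotease that completes the maturation of prelamin A and whose loss leads to accelerated aging. Mice received bleomycin or its vehicle (saline) once by the oropharyngeal route, and lungs were taken 21 days later. There were 30 arrays in 10 groups of 3, assigned here to array set 1 and array set 2 with 15 arrays each. Sample titles mark the saline groups named young as v1 or v2, read here as set 1 and set 2. Titles of the other groups carry no such mark, so their set is an assignment made here. Set 1 held Zmpste24-/- mice of 16 weeks (old) given saline or bleomycin, Zmpste24-/- mice of 7 weeks (young) given saline, and WT mice given saline or bleomycin. Those set 1 WT mice carry contradictory labels, young in their titles, old in their descriptions and 16 weeks as their age, and are called WT mice of 16 weeks here. Set 2 held WT mice of 7 weeks (young) given saline, WT mice of 82 weeks (old) given saline or bleomycin, and young Zmpste24-/- mice of 7 weeks given saline or bleomycin. Old thus means 82 weeks in WT and 16 weeks in Zmpste24-/- mice.

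Complex I takes electrons from NADH and complex II from succinate. Complex III passes them to cytochrome c and complex IV to oxygen, while the proton gradient so formed drives ATP synthesis by complex V. Most subunits of these complexes are encoded in the nucleus and are present in every cell with mitochondria. A few complex IV subunits exist in alternative forms: Cox6a2, Cox7a1 and Cox8b in heart and skeletal muscle (the latter pair also in brown fat), Cox4i2 in lung and Cox6b2 in testis, and Ndufa4l2 is induced by hypoxia. Nuclear respiratory factor 1 (NRF1) is a transcription factor that binds the promoters of many of these genes.

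RefSeq promoters of 300 bases (250 before and 50 after the annotated gene start, build GRCm38.p6) were at hand for 72 of the 90 genes. The palindromic NRF1 consensus has 10 bases (the capitals in the lines that follow) and is the same on both strands. It was found without mismatch in 7 of these 72 genes (9.72%), compared with 1.07% of all 27025 genes with a RefSeq promoter. These 7 stretches of 30 bases are printed because, of the 4 motifs searched, this was found in the most members, with the consensus in capitals. Sequences run 5′ to 3′ on the strand of the gene.

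Atp5g2, chr15:102671070-102671099, minus strand: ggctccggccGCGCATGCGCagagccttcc
Atp5k, chr5:108434430-108434459, minus strand: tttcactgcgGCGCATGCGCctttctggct
Cox6a1, chr5:115349101-115349130, minus strand: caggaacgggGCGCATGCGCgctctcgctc
Ndufa11, chr17:56717692-56717721, plus strand: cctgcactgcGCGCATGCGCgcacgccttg
Ndufaf4, chr4:24897960-24897989, plus strand: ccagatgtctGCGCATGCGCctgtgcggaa
Ndufaf5, chr2:140170652-140170681, plus strand: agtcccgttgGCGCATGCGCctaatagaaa
Uqcrc1, chr9:108936668-108936697, plus strand: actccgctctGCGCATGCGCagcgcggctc

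The consensus began 42 bases before the annotated start in Atp5g2, 50 before it in Atp5k and 31 after it in Uqcrc1. A YY1 motif of 10 bases that begins AAGATGG, searched on both strands, lay in 5 of the 72 promoters (6.94%, against 0.995% of all), namely those of Atp5j, Ndufa9, Ndufaf8, Ndufs4 and Ndufs7. The ETS motif CCGGAAGT, bound by GABP and searched likewise, lay in another 5 (6.94%, against 4.31% of all), those of Atp5h, Cox8a, Ndufs3, Uqcr11 and Uqcrh. The 3 motif lists had no gene in common. A match is a string of letters and not evidence of binding.

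Only the promoter of Cox8b held TATAAAA on the gene strand (1.39% of the members' promoters, against 3.87% of all). It began 5 bases after the annotated start, not before it. The promoters of Atp5k, a small subunit of complex V, and Cox8b, the muscle isoform of a complex IV subunit, are shown whole because these genes had opposite patterns with age in WT lungs. Capitals mark the NRF1 consensus in the first and TATAAAA in the second.

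Atp5k, chr5:108434350-108434649, minus strand: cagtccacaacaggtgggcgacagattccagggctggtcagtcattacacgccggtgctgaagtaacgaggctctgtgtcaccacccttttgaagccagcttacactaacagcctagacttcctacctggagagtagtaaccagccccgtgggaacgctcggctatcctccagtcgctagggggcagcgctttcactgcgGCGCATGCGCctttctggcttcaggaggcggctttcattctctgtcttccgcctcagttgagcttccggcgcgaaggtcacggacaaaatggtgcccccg
Cox8b, chr7:140900397-140900696, minus strand: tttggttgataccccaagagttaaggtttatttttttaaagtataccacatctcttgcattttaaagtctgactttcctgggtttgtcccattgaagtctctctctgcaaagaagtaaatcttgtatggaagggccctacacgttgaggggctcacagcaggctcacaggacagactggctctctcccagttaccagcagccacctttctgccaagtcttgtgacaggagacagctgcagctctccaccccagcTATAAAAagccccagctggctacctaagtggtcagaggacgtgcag

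The values are log2 probe set levels, and levels of different genes are not compared because probe sets differ in their response. Differences were tested with limma over all 22180 genes, with Benjamini-Hochberg adjustment, and a gene is called higher or lower where the adjusted p was below 0.05. The markers of lung epithelium were high on all 30 arrays (Sftpc 12.8 to 13.5, Ager 11.6 to 12.6, Scgb1a1 13.4 to 13.8). Several arrays stood apart. Old Zmpste24-/- saline replicate 3 was the lowest of the 30 arrays for 41 of the 71 subunits. The low level was not particular to these genes, since 14 of 24 other gene lists also had their lowest mean on that array, among them alveolar type 1 (10.2) and type 2 cells (10.5), fibroblasts (8.19), macrophages (7.47) and glycolysis (7.82). Young WT saline replicate 2 of set 2 had low alveolar type 2 (10.67) and fibroblast means (8.55). Replicates 1 and 3 of its group had 11.40 and 11.31, and 9.19 and 9.13. Its heart muscle mean (8.54) was the highest of the 30 arrays. Replicate 1 of the set 1 WT saline group was similar (10.68, 8.60 and 8.43 for these lists). Among the 6 young Zmpste24-/- saline arrays, 5 had Krt4, a keratin of squamous epithelium, above 10, with skeletal muscle genes high on the same arrays. Of these, 3 (replicate 2 of set 1 and replicates 2 and 3 of set 2) also had the brown fat gene Ucp1 at 8.72 to 9.13, where the other 27 arrays had at most 6.42. On the same 3 arrays Zmpste24 itself was at 7.55 to 7.93, near the WT range of 7.93 to 8.68 and above the 5.29 to 6.56 of the other 12 Zmpste24-/- arrays, so for these arrays the genotype is given as labelled and was not borne out by the gene's own level. Comparisons of members that rest on these arrays are given with and without them, while group means and counts for other gene lists include them.

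The mean level of each complex followed the same order at its ends. Complex I averaged 7.91 ± 0.05 (SD, n = 3) in old WT saline lungs, its highest group, and 7.61 ± 0.36 in old Zmpste24-/- saline lungs, its lowest. Complex IV had the widest span, from 9.10 ± 0.06 to 8.56 ± 0.55, and complex V ran from 8.57 ± 0.02 to 8.08 ± 0.36. Complexes II and III had the same highest and lowest groups. The low end rested on a group whose arrays were far apart, since its 3 complex IV means were 9.12, 8.53 and 8.02 for replicates 1, 2 and 3, a range that covered all other group means. After each array was centred on its median, young WT saline lungs became the lowest group for complexes I and IV, and young Zmpste24-/- saline lungs of set 1 the highest for complex I, while old WT saline lungs kept the highest mean for complexes II to V. The isoforms ran the other way. Their mean was lowest in old WT saline lungs (6.17 ± 0.13) and highest in young Zmpste24-/- saline lungs of set 1 (6.79 ± 0.23). The latter group had 6.60, 7.05 and 6.72 for replicates 1, 2 and 3, of which replicate 2 was an array with high Ucp1.

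**Figure D1:**
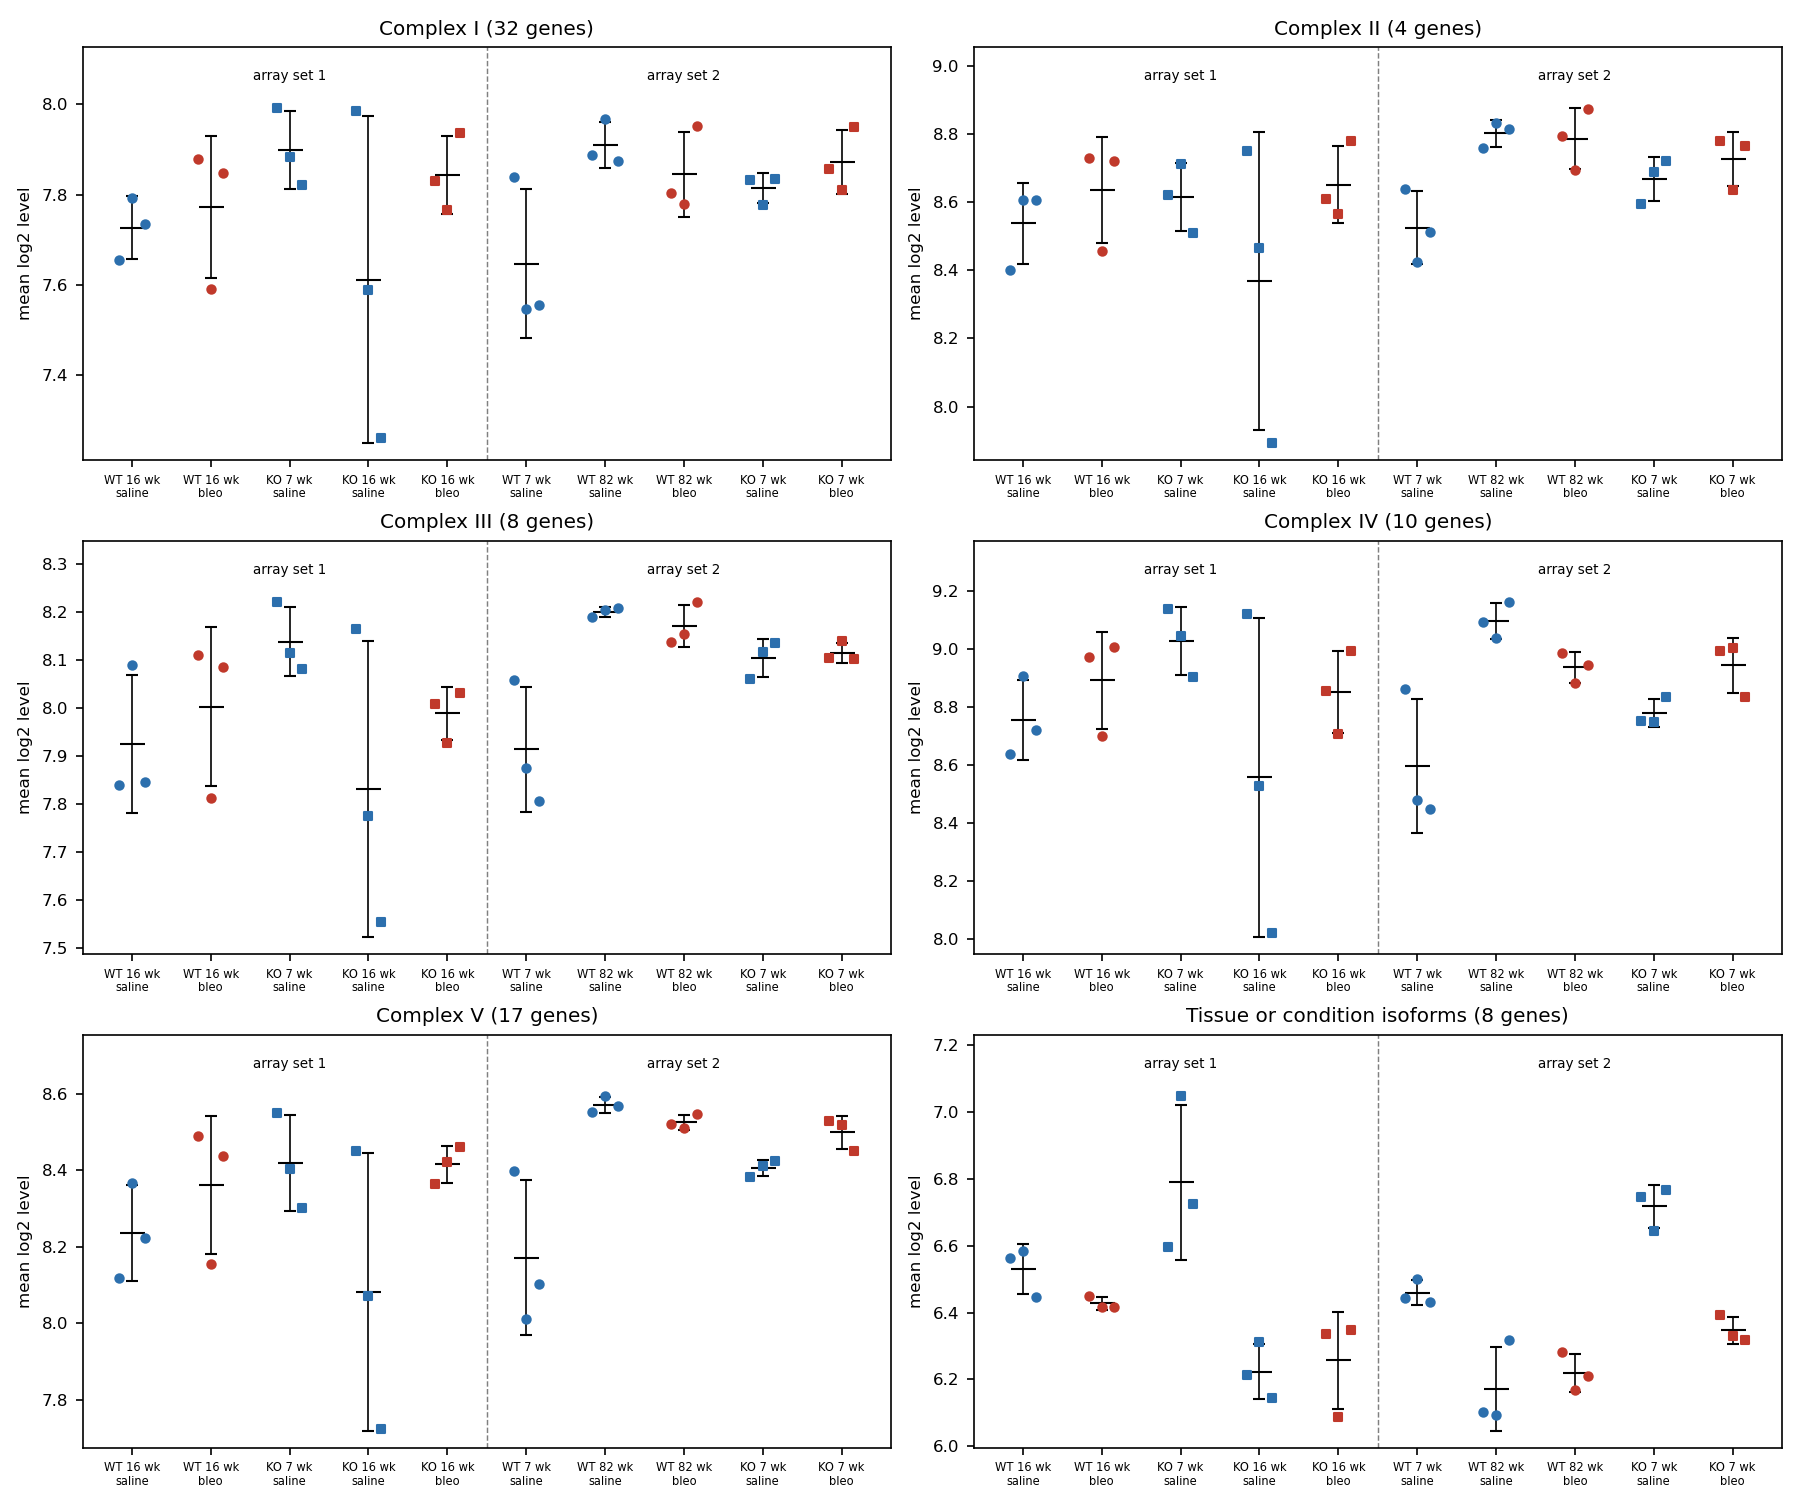
Mean log2 level of the genes of each complex, and of the 8 isoforms, in every array. Blue is saline, red is bleomycin, circles are WT and squares Zmpste24-/- (KO), bars are the mean and SD of 3 arrays, and the dashed line separates the array sets. For complexes I to V the 3 old Zmpste24-/- saline arrays are the widest apart, with complex IV at 9.12, 8.53 and 8.02, while the 3 old WT saline arrays lie close together with the highest group mean for complexes II to V under every scaling tried.

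To see how natural aging affected these genes, old and young WT saline lungs were compared within set 2. Of the 90 genes, 10 were higher (11.1%, where 4.98% of all genes were called higher) and 2 were lower (2.22%, against 3.15% of all genes). The 10 were all subunits of the general machinery and came from each complex: Ndufa1 and Ndufb6 of complex I, Sdhb of complex II, Uqcrq of complex III, Cox4i1, Cox5a and Cox6b1 of complex IV, and Atp5e, Atp5k and Atp5pb of complex V. The 2 lower genes, Cox6a2 and Cox8b, were muscle isoforms. The median difference of the 71 subunits was 0.32 on the log2 scale, with 67 above 0, beside a median of 0.01 over all genes. The old arrays lay wholly above the young arrays for 39 of the 90 genes, and for 17.3% of all genes. Without replicate 1 of the young WT group 14 members were higher and 2 lower, and leaving out any other array of either group left 3 or 4 higher. The arrays so left out included replicate 2 of the young group, which had low alveolar type 2 markers. Cox4i1, Uqcrq, Cox6a2 and Cox8b were called in all 6 omissions.

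Complex IV had the largest median difference among the complexes (0.52) and 3 of its 10 genes called higher. Cox4i1, a regulatory subunit, was at 9.01, 9.03 and 8.98 in old WT lungs and at 8.46, 8.14 and 7.88 in young WT lungs. All old arrays lay above all young arrays, and the difference was 0.85 (SE 0.17, adjusted p = 0.00207), a 1.80-fold higher level. Cox5a, which contributes to the matrix face of the enzyme, was at 9.12, 9.00 and 9.16 against 8.50, 8.19 and 7.93, again without overlap (difference 0.89, SE 0.23, adjusted p = 0.0137). Cox6b1, which sits between the monomers of the dimer on the outer face, was higher by 0.81 (SE 0.25, adjusted p = 0.0416). Cox5b just missed the threshold at 0.53 (SE 0.17, adjusted p = 0.0532), with its old arrays above its young arrays.

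In complex V the median difference was 0.41, with 3 of 17 genes called higher. Atp5k, the e subunit in the membrane sector, was at 9.29, 9.49 and 9.34 in old WT lungs and 8.95, 8.84 and 8.23 in young WT lungs. The groups did not overlap and differed by 0.70 (SE 0.17, adjusted p = 0.00893). Atp5pb, a subunit of the peripheral stalk, was higher by 0.69 (SE 0.21, adjusted p = 0.0418). Atp5e, a small subunit of the central stalk, was higher by 0.44 (SE 0.12, adjusted p = 0.0247), and its second probe set gave 0.80. Not every second probe set followed the one used: those of Atp5h and Cox7b gave -0.23 and -0.42 where the ones used gave 0.60 and 0.40. Atp5b, the catalytic beta subunit, was at 10.9 to 11.1 in old and 10.6 to 10.8 in young WT lungs, and its difference of 0.26 did not pass the test (SE 0.15, adjusted p = 0.389).

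Complex III contributed Uqcrq, a small subunit next to cytochrome b. It was at 7.41, 7.52 and 7.66 in old WT lungs and at 6.99, 6.89 and 6.54 in young WT lungs, without overlap (difference 0.72, SE 0.15, adjusted p = 0.00206). Uqcrc1, a core subunit, and Cyc1, the cytochrome that hands electrons to cytochrome c, had differences of 0.31 (SE 0.14, adjusted p = 0.195) and 0.24 (SE 0.14, adjusted p = 0.344). In complex II the iron-sulphur subunit Sdhb was higher by 0.46 (SE 0.14, adjusted p = 0.0403), while the flavoprotein Sdha differed by 0.02 (SE 0.11). Complex I had a median difference of 0.25 and 31 of 32 genes above 0, of which Ndufa1 and Ndufb6 passed the test. Ndufa1, a small membrane-arm subunit, was at 8.28, 8.56 and 8.50 against 8.15, 7.39 and 7.48, with a difference of 0.77 (SE 0.23, adjusted p = 0.0393). Its lowest old array was above its highest young array. The electron-entry subunits Ndufv1 and Ndufs1 differed by 0.07 (SE 0.12) and 0.09 (SE 0.14) and were not called.

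Other gene groups moved in the same comparison. Of 13 measured glycolysis genes 7 were higher, led by Pgk1 (0.96) and Pgam1 (0.83), and of 69 cytosolic ribosomal protein genes 16 were higher (median 0.36). Mitochondrial lists had few calls: 2 of 71 mitochondrial ribosomal proteins, 1 of 15 complex IV assembly factors (Coa5, 0.45) and 1 of 13 assembly factors of complexes II, III and V (Sdhaf4, 0.52) were higher. The medians of these lists were 0.25, 0.10 and 0.14, beside 0.25 for the 90 members. Among 10 genes for electron carriers and an inhibitor outside the gene rule, 1 was higher (median 0.33). None of 16 tricarboxylic acid cycle genes, 15 genes of fatty acid oxidation or 16 regulators of mitochondrial biogenesis passed the test, and their medians were 0.15, 0.18 and 0.08. Macrophage markers moved with age as well, with 9 of 12 higher (median 1.46, Gpnmb 3.27, Cd68 2.07) and their mean level at 9.19 to 9.32 in old against 7.47 to 7.92 in young WT lungs. Cell cycle genes were higher for 10 of 12. The part of these cells in the values of the respiratory chain was not tested, and in whole lungs more RNA per cell and more cells of a type cannot be told apart.

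**Figure D2:**
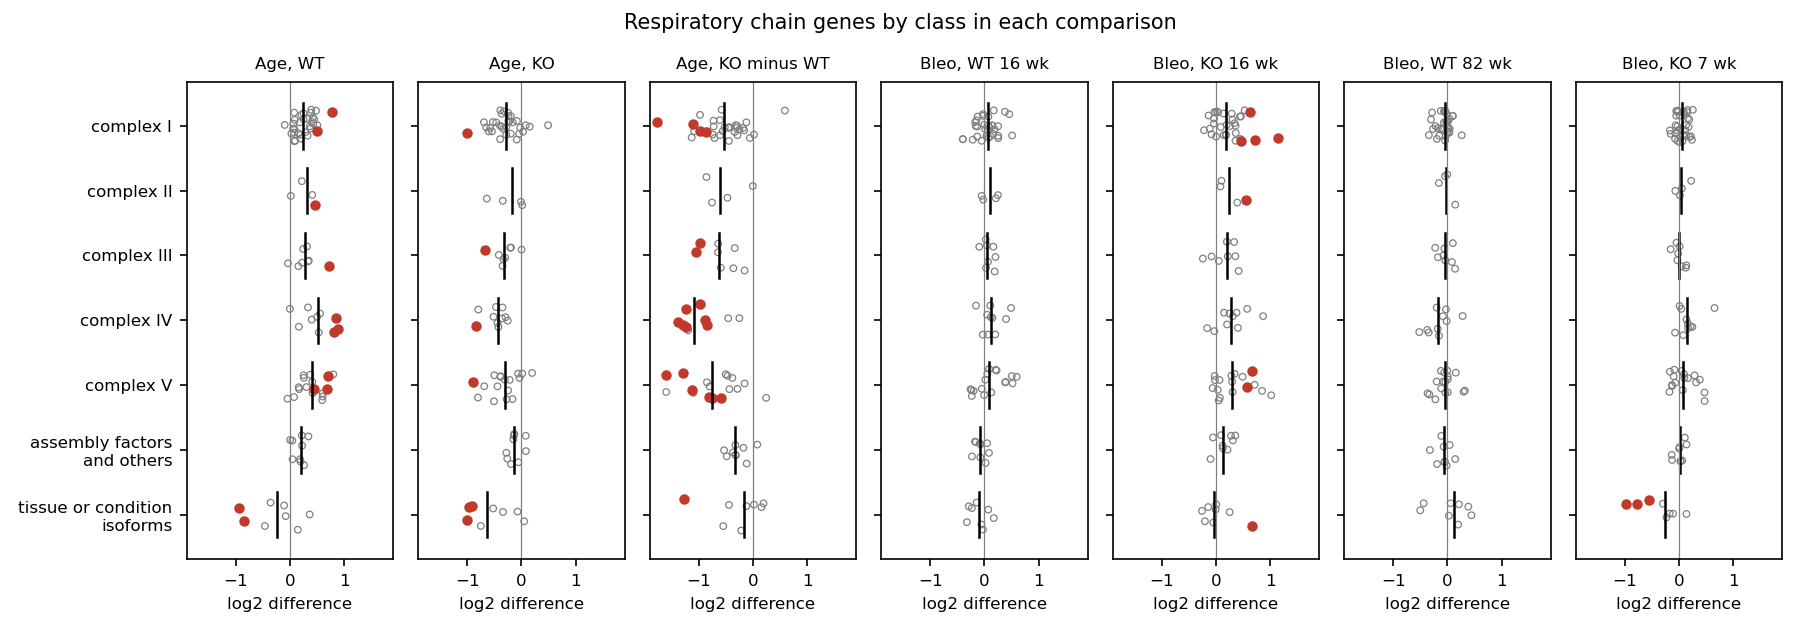
Log2 difference of each respiratory chain gene (points) by class in 7 comparisons, with the class median as a black line. Filled red points are genes called at an adjusted p below 0.05 and open grey points are not called. Age comparisons are old against young saline lungs, and the third panel is the Zmpste24-/- (KO) difference minus the WT difference, where complex IV has a median of -1.08 and 7 of 10 genes called.

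The same question was put to accelerated aging by comparing old with young Zmpste24-/- saline lungs within set 1. Here 7 of the 90 genes were lower (7.78%, where 1.23% of all genes were called lower) and none was higher (0.604% of all genes were). The 7 were Ndufa1 of complex I, Uqcrc1 of complex III, Ndufa4 of complex IV, Atp5k of complex V and the isoforms Cox6b2, Cox7a1 and Cox8b. The 71 subunits had a median of -0.33, with 63 below 0, beside a median of -0.03 over all genes. The old arrays lay wholly below the young ones for 16 of the 90 genes, and for 5.68% of all genes.

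Atp5k was at 8.47, 7.90 and 8.14 in old Zmpste24-/- lungs and at 9.26, 9.00 and 8.96 in young ones. The groups were apart, with a difference of -0.90 (SE 0.17, adjusted p = 0.00445). Ndufa1 was at 8.04, 7.26 and 6.98 against 8.68, 8.34 and 8.26, and fell by 1.00 (SE 0.23, adjusted p = 0.0236). Uqcrc1 was at 8.47, 8.86 and 8.25 against 9.06, 9.42 and 9.12, and fell by 0.67 (SE 0.14, adjusted p = 0.00945). In Ndufa4, the 10.04 of old replicate 1 exceeded the 10.03 of young replicate 3, so that the groups touched even though the gene was called (difference -0.83, SE 0.20, adjusted p = 0.0300).

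These calls depended on single arrays. Without old Zmpste24-/- saline replicate 3, the array low across the chain, 2 genes were called, Atp5k and Cox7a1, and the median over the 90 genes was -0.12. The same pair remained without young replicate 2, an array with high Ucp1. Without old replicate 1, the highest of its group for most subunits, 33 genes were called, all lower. When only the groups compared entered the fit none was called. Catalytic subunits did not pass the test: Atp5b had -0.50 (SE 0.15, adjusted p = 0.0950), Cyc1 -0.35 (SE 0.14, adjusted p = 0.214), Ndufs1 -0.16 (SE 0.14), Ndufv1 -0.09 (SE 0.12) and Sdha 0.01 (SE 0.11). Among other mitochondrial lists none of 71 mitochondrial ribosomal proteins and none of 16 tricarboxylic acid cycle genes was called, with medians of -0.21 and -0.31. Markers of other cells were lower in the same comparison for 5 of 10 fibroblast and collagen genes (median -0.93), 7 of 12 squamous genes (median -1.01) and 11 of 14 skeletal muscle genes (median -1.25). Without old replicate 3 these counts were 2, 6 and 7. Their part in the values of the respiratory chain was not tested.

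All 10 subunits that rose with age in WT lungs had a value below 0 with age in Zmpste24-/- lungs, and 2 of them, Atp5k and Ndufa1, were called in both comparisons in opposite directions. Cox4i1 had -0.44 (SE 0.17, adjusted p = 0.216), Cox5a -0.35 (SE 0.23, adjusted p = 0.499) and Uqcrq -0.33 (SE 0.15, adjusted p = 0.283) in Zmpste24-/- lungs, none of which passed. Sdhb was near 0, at -0.01. Atp5e was at -0.06, while its second probe set gave -0.56. The difference between both effects of age was therefore tested itself, as a comparison added after the values were seen.

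The effect of age was lower in Zmpste24-/- than in WT lungs for 20 of the 90 genes (22.2%, where 4.18% of all genes were called lower) and higher for none (1.51% of all genes). Of the 90, 82 had a negative difference, with a median of -0.51 beside -0.03 over all genes, and 49 had an unadjusted p below 0.05. Complex IV was the most affected by count, with 7 of 10 genes called and a median of -1.08. Complex V had 6 of 17 (median -0.76), complex I 4 of 32 (median -0.54), complex III 2 of 8 (median -0.62) and complex II none of 4 (median -0.61). All 20 genes had a positive value in WT and a negative value in Zmpste24-/- lungs. Other lists were lower in the same test, with 7 of 12 macrophage markers (median -1.46), 7 of 12 cell cycle genes (median -1.09), 6 of 12 squamous genes, 4 of 10 fibroblast genes, 4 of 14 skeletal muscle genes and 5 of 13 glycolysis genes called. Medians were -0.60 for electron carriers and an inhibitor outside the gene rule (2 of 10 called) and -0.50 for the tricarboxylic acid cycle (0 of 16). They were -0.44 for mitochondrial ribosomal proteins (5 of 71) and -0.42 for cytosolic ribosomal proteins (10 of 69). Lists with genes called higher included endothelium (3 of 10), lymphocytes (2 of 9) and club and ciliated cells (2 of 9). The part of these lists in the difference was not tested.

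The difference reached -1.77 (SE 0.33, adjusted p = 0.00223) for Ndufa1, -1.60 (SE 0.24, adjusted p = 0.000380) for Atp5k and -1.39 (SE 0.29, adjusted p = 0.00507) for Ndufa4. Cox4i1 followed with -1.29 (SE 0.25, adjusted p = 0.00259), Cox6b2 with -1.28 (SE 0.29, adjusted p = 0.00871), Uqcrq with -1.05 (SE 0.21, adjusted p = 0.00348) and Uqcrc1 with -0.98 (SE 0.20, adjusted p = 0.00377). These 7 genes were called whichever of the 12 arrays was left out, and also without the 3 arrays with high Ucp1. The other 13 lost the call under at least 1 omission: Atp5h, Cox6b1, Cox5a, Atp5pb, Ndufa3, Ndufv2, Cox7a2, Cox5b, Ndufb6, Cox6a1, Atp5g3, Atp5b and Atp5g2. For Atp5h the second probe set gave -0.23 with age in WT and -0.37 in Zmpste24-/- lungs, where the one used gave 0.60 and -0.69. For Cox5b the second gave 0.24 and -0.09, where the one used gave 0.53 and -0.36. For Atp5g2 these were 0.33 and -0.165, against 0.37 and -0.22. Without old Zmpste24-/- saline replicate 3 the count was 12, and without replicate 1 of that group 45. Of the 7 genes with the NRF1 consensus printed above, 4 were among the 20 called of 90, namely Atp5g2, Atp5k, Cox6a1 and Uqcrc1. For the ETS motif it was 1 of 5 (Atp5h) and for the YY1 motif 0 of 5. Atp5g2 and Cox6a1 were called in only 3 and 5 of the 12 omissions. A link between motif and call was not tested. The 4 groups come from both array sets, each age comparison lying within 1 set, so genotype and set cannot be told apart in this difference.

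**Figure D3:**
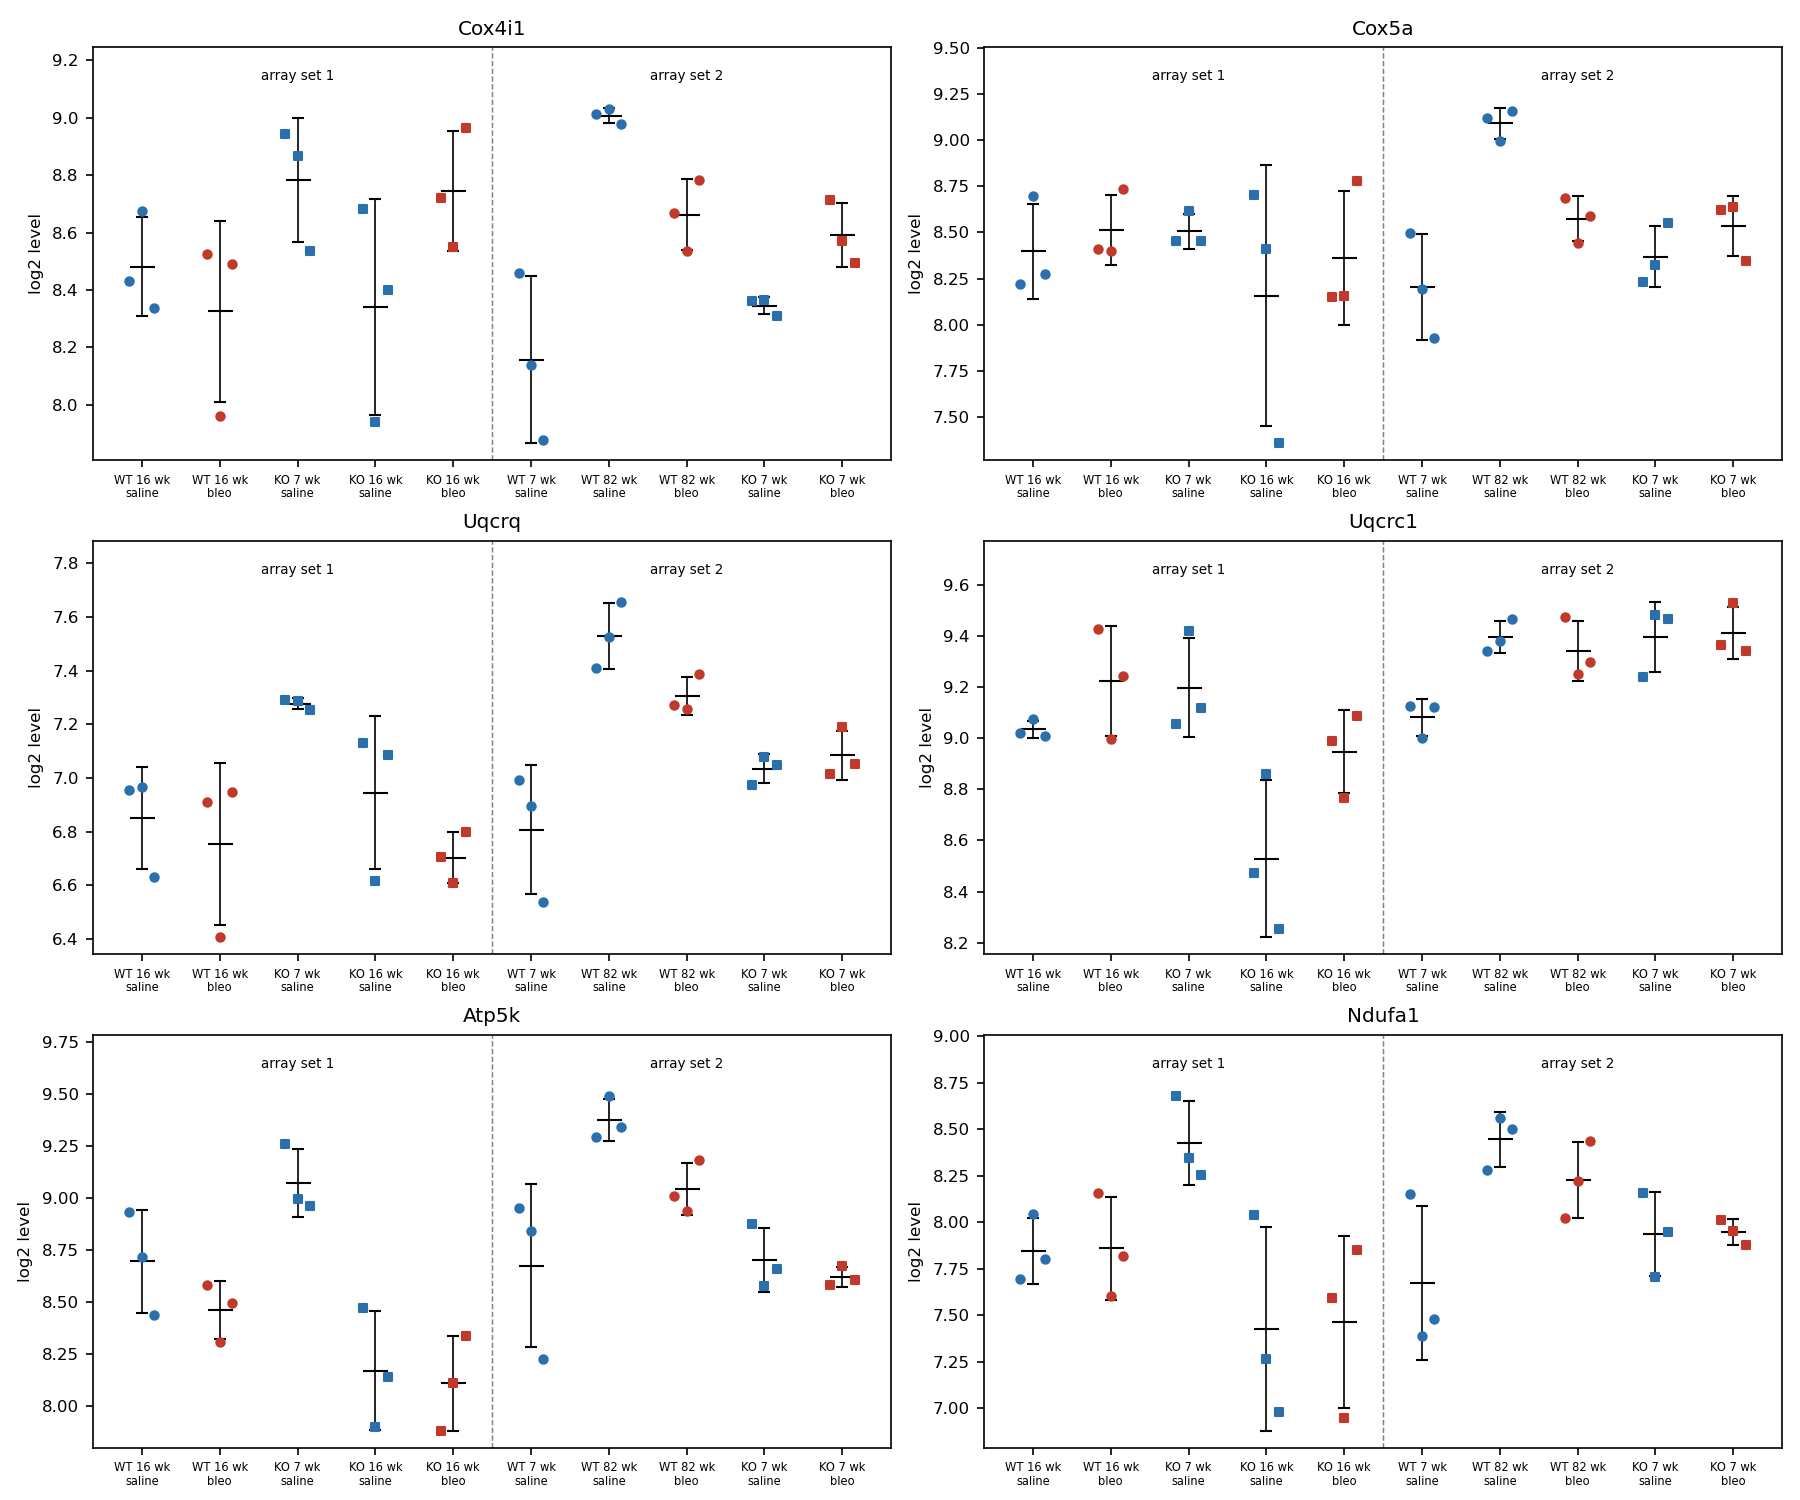
Log2 level of 6 subunits in every array, with colours, symbols and bars as in the plot of complex means. Old WT saline lungs (82 weeks) have a higher mean than young WT saline lungs (7 weeks, set 2) in each panel, although Uqcrc1 was not called there. For Atp5k, Ndufa1 and Uqcrc1 old Zmpste24-/- saline lungs (16 weeks) are below young ones (7 weeks, set 1).

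The isoforms had their own pattern. Cox8b had the widest span of group means of the 8 (1.55) and was called lower in 3 comparisons. In old WT saline lungs it was at 5.16, 5.09 and 5.19, and in young ones at 6.18, 5.95 and 5.88, a difference of -0.85 (SE 0.20, adjusted p = 0.00615). In old Zmpste24-/- saline lungs it was at 5.95, 5.81 and 5.39, against 6.58, 7.24 and 6.26 in young ones of set 1 (difference -0.97, SE 0.20, adjusted p = 0.00742). The old arrays lay below the young arrays in both genotypes. Cox8b was also lower after bleomycin in young Zmpste24-/- lungs, at 5.70, 5.83 and 5.49 against 6.37, 6.69 and 6.89 with saline. The difference was -0.98 (SE 0.20, adjusted p = 0.00273). Krt4 was at 11.8, 11.7 and 11.4 on those saline arrays and at 4.96, 5.39 and 5.07 on the bleomycin arrays.

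Cox7a1 was at 7.16, 7.75 and 7.02 in young and 6.16, 6.45 and 6.29 in old Zmpste24-/- saline lungs. The old arrays lay well below, with a difference of -1.01 (SE 0.17, adjusted p = 0.00125), while WT lungs gave -0.46 (SE 0.17, adjusted p = 0.0899). Cox6a2 was at 7.15, 7.06 and 7.51 in old and 7.96, 8.46 and 8.13 in young WT lungs, and fell by 0.94 (SE 0.21, adjusted p = 0.00391). In Zmpste24-/- lungs it had -0.75 (SE 0.21, adjusted p = 0.0598). The lung form Cox4i2 had -0.36 in WT and -0.34 in Zmpste24-/- lungs (SE 0.14 for both), without a call. Cox7b2 and Cox8c stayed at low levels of 2.72 to 3.87 and 4.63 to 5.33 on every array.

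Cox6b2 did not follow the other isoforms. In old Zmpste24-/- lungs it was at 6.35, 7.15 and 6.14 with saline and 6.64, 6.17 and 6.81 with bleomycin, and in young saline lungs of set 1 at 7.40, 7.71 and 7.28. Old saline arrays were all below young ones (difference -0.92, SE 0.20, adjusted p = 0.0148), but WT lungs gave 0.36 (SE 0.20, adjusted p = 0.345), the sign of the general subunits. Without old Zmpste24-/- saline replicate 3 or young replicate 2 the call in Zmpste24-/- lungs was lost.

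Genes of other tissues moved with these isoforms. In young Zmpste24-/- saline lungs, the 3 arrays with high Ucp1 had Cox8b at 7.24, 6.69 and 6.89, the highest values of all 30 arrays, and without them the fall of Cox8b with age in Zmpste24-/- lungs was -0.70 and was not called (adjusted p = 0.113). The mean of 14 skeletal muscle markers was 7.57 to 7.66 in young Zmpste24-/- saline lungs of set 2, against 5.44 to 5.66 after bleomycin, and 12 of the 14 were called lower with bleomycin. Heart muscle markers were lower for 9 of 12 with age in WT lungs, with means of 6.97 to 7.00 in old and 7.82 to 8.54 in young arrays, and Myh6, the atrial and mouse ventricular myosin, fell by 1.56. With bleomycin in young Zmpste24-/- lungs 7 of 12 heart markers were lower. The part of such tissue in the isoform values was not tested.

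**Figure D4:**
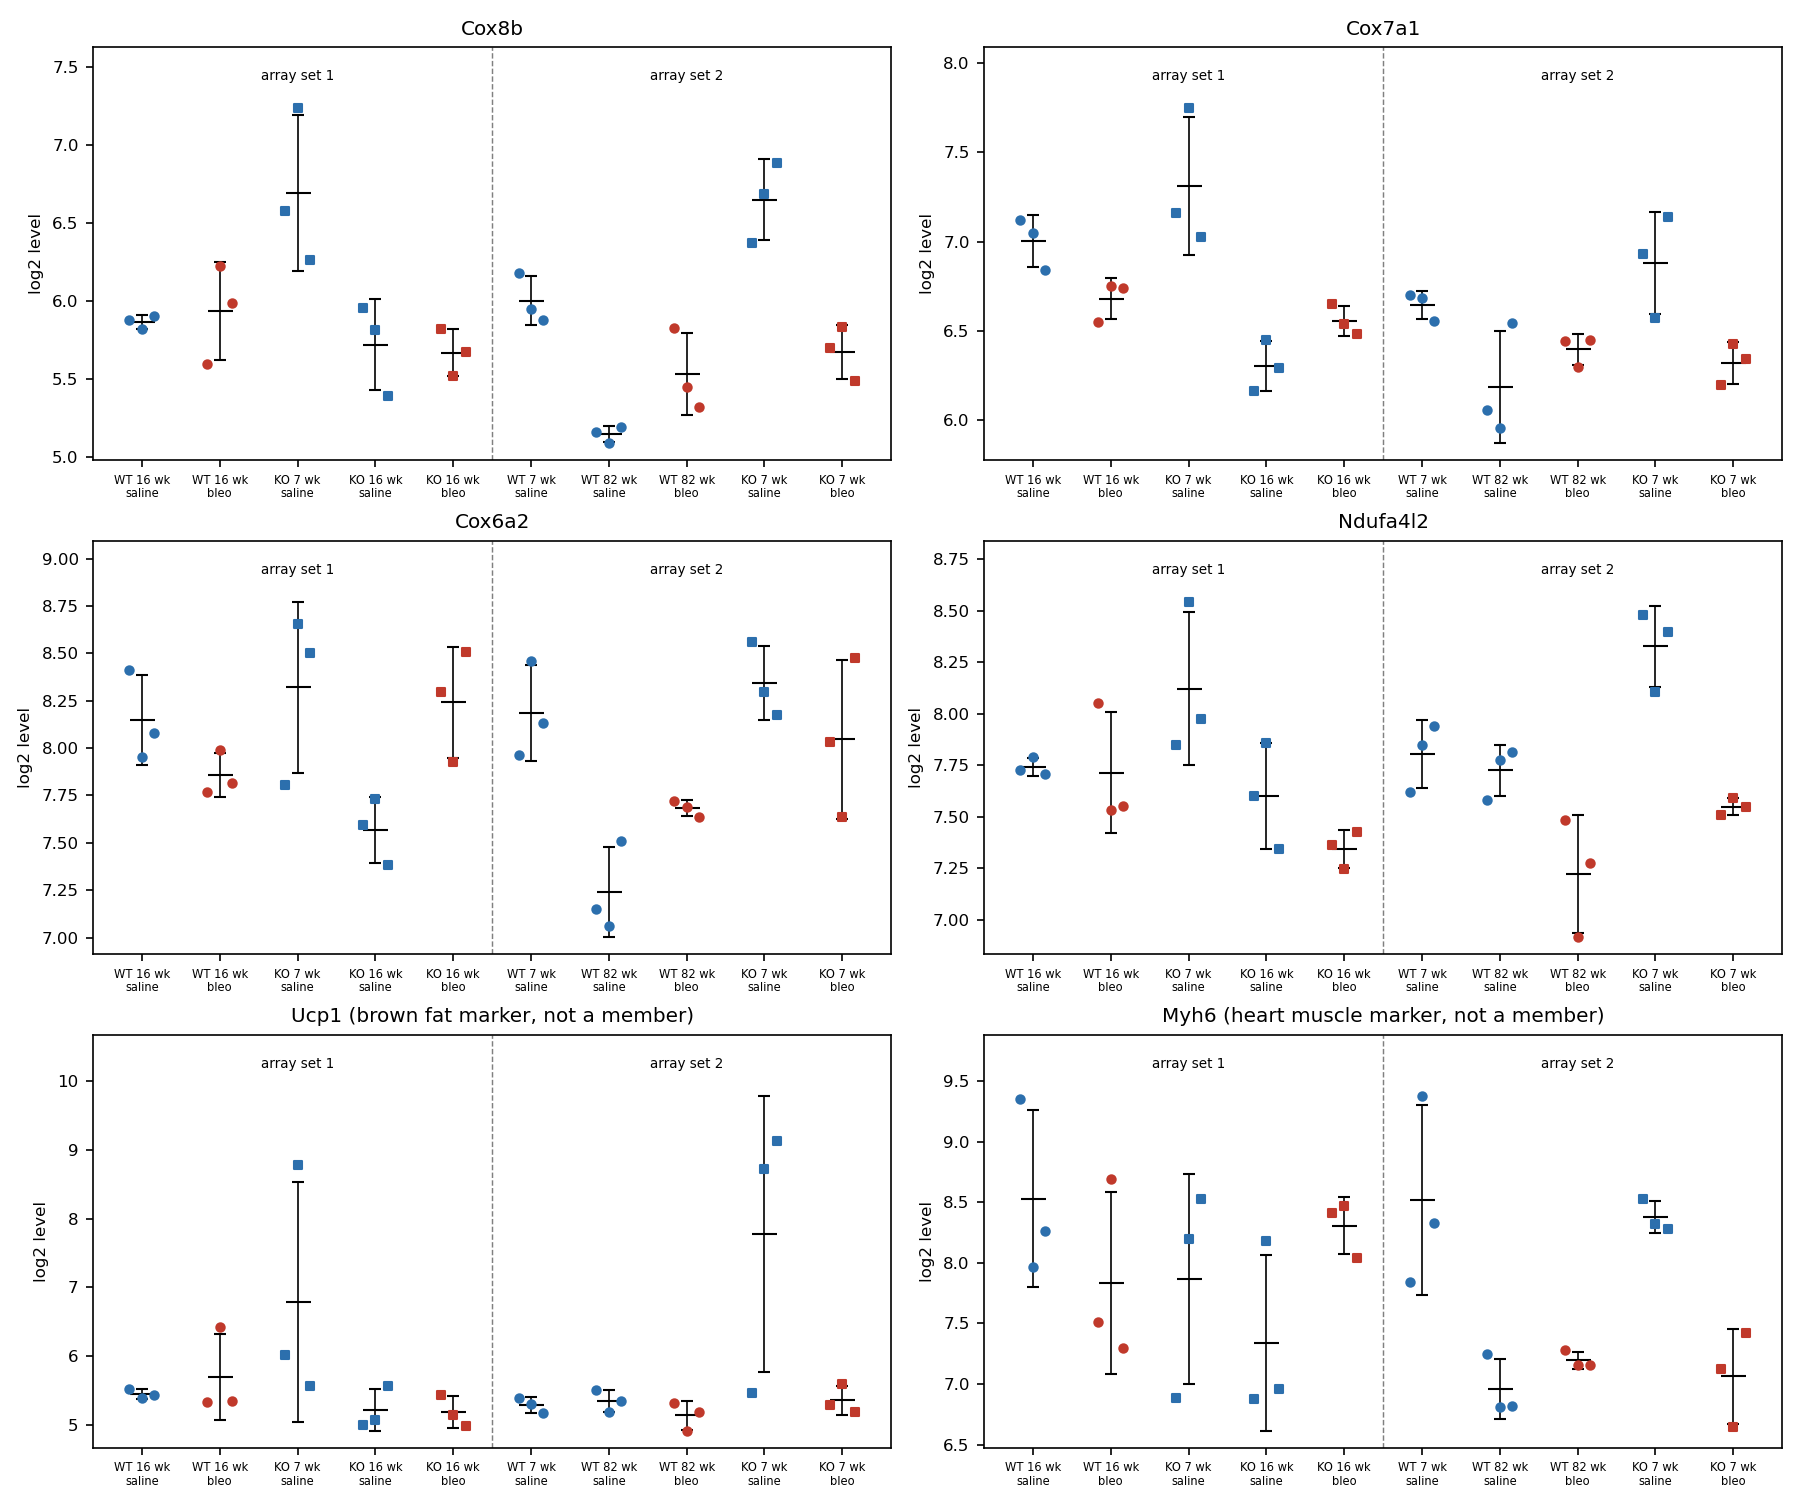
Log2 level of 4 isoforms in every array, with the brown fat gene Ucp1 and the heart muscle gene Myh6 below them for comparison. Colours, symbols and bars are as in the plot of complex means. Cox8b is highest on the 3 arrays where Ucp1 is at 8.72 to 9.13, and Cox6a2 and Myh6 are both low in old WT saline lungs.

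Bleomycin was compared with saline in each of the 4 genotype and age combinations. In WT lungs of 16 weeks no member was called in the limma fit (0.721% of all genes were) and 5 had an unadjusted p below 0.05. In old WT lungs none was called either (1.01% of all genes), with 6 at an unadjusted p below 0.05. The medians over the 90 genes were 0.05 and -0.04. In young Zmpste24-/- lungs 3 members were lower (3.33%, against 2.22% of all genes) and none higher (2.51% of all genes). These were the isoforms Cox8b, Cox7a1 and Ndufa4l2, while none of the 71 subunits passed.

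Ndufa4l2, the hypoxia-induced paralogue of Ndufa4, was at 8.48, 8.11 and 8.40 in young Zmpste24-/- saline lungs and 7.51, 7.59 and 7.55 after bleomycin. The groups were well apart and differed by -0.78 (SE 0.17, adjusted p = 0.00619). Cox7a1 had a smaller difference of -0.56 (SE 0.17, adjusted p = 0.0492), from 6.93, 6.57 and 7.14 to 6.19, 6.43 and 6.34, and was called in 1 of 6 omissions of an array. Replicates 2 and 3 of the saline group were arrays with high Ucp1. Without the high-Ucp1 arrays only 1 saline array was left, and the differences were -0.70 for Cox8b, -0.61 for Cox7a1 and -0.93 for Ndufa4l2. That saline array still had Krt4 at 11.8. In the same comparison 3 of 12 pericyte and smooth muscle markers (median -0.56), 3 of 10 fibroblast markers and 8 of 12 squamous markers were lower and 5 of 12 macrophage markers higher, and their part in the isoform values was not tested.

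In old Zmpste24-/- lungs bleomycin was followed by higher levels of 8 members (8.89%, where 7.32% of all genes were called higher), a share near that of all genes, and by lower levels of none (3.28% of all genes). They were Ndufa6, Ndufa10, Ndufb9 and Ndufv2 of complex I, Sdhd of complex II, Atp5j and Atp5pb of complex V, and Cox6a2. The largest difference was that of Ndufb9, a complex I accessory subunit, with saline arrays at 10.94, 10.07 and 8.44 and bleomycin arrays at 10.91, 10.97 and 10.98 (difference 1.14, SE 0.34, adjusted p = 0.0303). Its groups overlapped, and the low saline array was replicate 3. Ndufv2, which carries an iron-sulphur cluster, was at 8.40, 7.97 and 7.14 with saline and 8.51, 8.44 and 8.74 with bleomycin (difference 0.73, SE 0.21, adjusted p = 0.0238). Without saline replicate 3 no member was called, while 7.08% of all genes still were, and without saline replicate 1 the count was 34. Omission of a bleomycin array left 1 to 3 members. Of 9 lymphocyte markers 7 were lower in the same comparison and of 12 heart muscle markers 3 were higher, and their part in the result was not tested.

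Genes of mitochondrial upkeep gave 5 calls of 14 in this comparison, all higher, among them Bnip3 (1.22) and Pink1 (0.87) of mitophagy, and Bnip3, Mfn1 and Pink1 were still called without saline replicate 3. Of 16 regulators of mitochondrial biogenesis 3 were higher, including the coactivator Ppargc1a (0.69) and the mitochondrial transcription factor Tfam (0.54), and Pprc1 was lower (-0.73). Only Pprc1 was still called without that array. Of 71 mitochondrial ribosomal proteins 5 were higher, and of 16 tricarboxylic acid cycle genes 2 were.

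Ndufa6, a complex I subunit of the LYR family, was the member whose response to bleomycin differed between genotypes. It was at 8.25, 7.86 and 7.84 with saline and 8.42, 8.34 and 8.56 with bleomycin in old Zmpste24-/- lungs. In WT lungs of 16 weeks it was at 8.25, 8.27 and 7.94 with saline and 7.82, 7.74 and 7.71 with bleomycin. Bleomycin arrays were thus above all saline arrays in the first and below them in the second. The differences were 0.45 (SE 0.14, adjusted p = 0.0426) and -0.40 (SE 0.14, adjusted p = 0.272), and the difference between them was 0.85 (SE 0.20, adjusted p = 0.0167). It was the only member called in that test (1.11% of members, where 2.62% of all genes were called higher), and the call held whichever of the 12 arrays was left out, but it was lost when only the 4 groups entered the fit (adjusted p = 0.0913). The call within old Zmpste24-/- lungs was lost in 5 of 6 omissions.

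The genotypes were compared at rest and after bleomycin. With saline, no member was called between Zmpste24-/- and WT lungs of 16 weeks (0.00902% of all genes were called, 9 members had an unadjusted p below 0.05) or of 7 weeks (2.88% of all genes, 7 members). The medians over the 90 genes were -0.15 and 0.17. Among isoforms Cox7a1 had -0.70 at 16 weeks (SE 0.17, adjusted p = 0.190), with its Zmpste24-/- arrays below its WT arrays. Cox8b had 0.65 at 7 weeks (SE 0.20, adjusted p = 0.0832) and Ndufa4l2 0.52 (SE 0.17, adjusted p = 0.127). Without the high-Ucp1 arrays, which left 1 Zmpste24-/- array assumed to vary like the other groups, they were 0.37 and 0.67, and the median over the 90 genes was 0.18. Markers of other tissues were higher in Zmpste24-/- lungs at 7 weeks for 12 of 14 skeletal muscle, 7 of 12 squamous and 4 of 10 fibroblast genes, and their part was not tested.

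After bleomycin, Zmpste24-/- lungs of 16 weeks differed from WT lungs of 16 weeks in 3 members (2 higher, 2.22% against 7.37% of all genes, and 1 lower, 1.11% against 8.48%). Ndufa6 was higher by 0.68 (SE 0.14, adjusted p = 0.00138). Cox7a2l, counted with the assembly factors and related genes, was at 8.13, 8.06 and 8.03 against 7.70, 7.28 and 7.71. It was higher by 0.51 (SE 0.16, adjusted p = 0.0244). Cox6b2 was lower by 0.73 (SE 0.20, adjusted p = 0.0129). None of these 3 had overlapping groups. Cox6b2 was not called without bleomycin replicate 2 of Zmpste24-/- or replicates 1 or 3 of WT lungs, and Cox7a2l without any of the 3 Zmpste24-/- bleomycin arrays or replicate 2 of WT lungs. In the same comparison 11 of 12 cell cycle genes, 6 of 12 macrophage markers, 6 of 9 lymphocyte markers and 5 of 10 fibroblast markers were lower, and their part was not tested.

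Old Zmpste24-/- lungs were also set against old WT lungs after bleomycin, a comparison that the study itself made. These groups lie in different array sets, so genotype, age in weeks and set cannot be told apart. Members called lower numbered 7 (7.78%, against 9.08% of all genes) and none was higher (4.98% of all genes), while with each array centred on its median, which moved the median of all genes from -0.08 to 0.03, 3 were lower and 4 higher. Atp5k, Atp5e and Uqcrq were lower under both scalings. Atp5k was at 7.88, 8.11 and 8.34 in Zmpste24-/- and 9.01, 8.94 and 9.18 in WT lungs (difference -0.93, SE 0.17, adjusted p = 0.000436). Atp5e was at 7.54, 7.64 and 7.47 against 8.02, 8.20 and 8.37 (difference -0.65, SE 0.12, adjusted p = 0.000645), its second probe set gave -0.25, and the mean of both was not called (adjusted p = 0.0764). Uqcrq was lower by 0.60 (SE 0.15, adjusted p = 0.00653). The other 4 were Ndufa1, Cox5b, Ndufb10 and Atp5g2, with differences of -0.76, -0.58, -0.47 and -0.40. Macrophage markers were lower for 10 of 12 (median -1.59), cell cycle genes for 10 of 12 and lymphocyte markers for 6 of 9, and their part was not tested. Young Zmpste24-/- saline lungs of 7 weeks, the only genotype and age in both sets, gave no called member between sets (0.00451% of all genes, 10 members at an unadjusted p below 0.05) and a median of -0.06 (-0.08 without the high-Ucp1 arrays). Complex IV was less even, since all 10 of its genes were lower in set 2 than in set 1 (median -0.19). Its mean in these lungs was 9.03 ± 0.12 in set 1, the set used for the effect of age, and 8.78 ± 0.05 in set 2.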

How the data were processed

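Whole-lung RNA was hybridised to Affymetrix Mouse Gene 2.0 ST arrays, 3 per group, described by the study as biological samples. The deposited log2 probe set values were used as given. For background correction, normalization and array set, the authors' method was not given in the sources used here. Array medians were 5.95 to 6.19. Of 41345 probe sets, 23521 named 1 gene, 1820 several and 16004 none. The probe set with the highest mean stood for each of 22180 genes (1082 had several, 9 of them members). No depth applies to arrays, and 3 arrays a group limit precision. Group means of all 30 arrays were fitted in limma 3.58.1 (R 4.3.3) with eBayes, adjusted p below 0.05, and the script was tested on simulated data. Members and lists were chosen with earlier results of these data known. Named genes were up to 6 called members with the largest differences in each direction, 5 isoforms and 9 core subunits where a value was worth stating, members whose call changed between fits and up to 4 called genes of other lists. Alternatives were quantile normalization, median centring, a minimum mean log2 of 5, the mean of probe sets, a trended robust variance, fits of the compared groups alone, a replicate block, omission of single arrays and omission of 3 arrays with high Ucp1. Promoters came from RefSeq (GRCm38.p6).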

Additional observations from a re-analysis of the deposited data

Results flagged for a closer look

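These members had effects that differed between genotypes by a test of the difference itself. The response to bleomycin in set 1, Zmpste24-/- minus WT, was 0.853 on the log2 scale for Ndufa6. The effect of age, Zmpste24-/- minus WT, was below 0 for 20 members. In complex I it was -1.773 for Ndufa1, -1.109 for Ndufa3, -0.863 for Ndufb6 and -0.981 for Ndufv2, and in complex III -0.983 for Uqcrc1 and -1.055 for Uqcrq. In complex IV it was -1.292 for Cox4i1, -1.237 for Cox5a, -0.889 for Cox5b, -0.847 for Cox6a1, -1.237 for Cox6b1, -0.970 for Cox7a2 and -1.386 for Ndufa4, and for the isoform Cox6b2 -1.280. In complex V it was -0.757 for Atp5b, -0.591 for Atp5g2, -0.803 for Atp5g3, -1.288 for Atp5h, -1.602 for Atp5k and -1.129 for Atp5pb. Each age comparison lies in its own array set, and the weeks that separate old from young differ between genotypes, so these cannot be told apart from genotype. With 3 arrays a group, no group was large enough for a test of outlying arrays.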

How the results depend on the processing

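Calls rested on 3 arrays a group and on the shared variance estimate. Counts of called members moved by over 1.5 times as follows. With only the compared groups in the fit, age in Zmpste24-/- lungs gave 0 calls, bleomycin in old Zmpste24-/- lungs 0, the genotypes after bleomycin 6 at 16 weeks and 11 among old mice, the difference between the effects of age 4 and that between the effects of bleomycin in set 1 0. After quantile normalization, bleomycin in old Zmpste24-/- lungs gave 5 and the genotypes at 16 weeks after bleomycin 5. Without the 3 high-Ucp1 arrays, age in Zmpste24-/- lungs gave 2 and the difference between the effects of age 7. For bleomycin in young Zmpste24-/- lungs that omission left 1 saline array, so no count is given. The set 1 difference between bleomycin effects gave 2 calls without genes of a mean log2 under 5 and 2 with a trended robust variance.

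Leaving out single arrays gave 5 to 16 calls for age in WT, 2 to 33 for age in Zmpste24-/-, 7 to 45 for their difference, 0 to 34 for bleomycin in old Zmpste24-/-, 2 to 3 in young Zmpste24-/-, 1 to 3 for the genotypes at 16 weeks after bleomycin, 4 to 6 among old mice after bleomycin, 0 to 3 for the genotypes at 16 weeks with saline and 1 to 3 for the set 1 difference between bleomycin effects. The other comparisons gave 0 throughout. The cause of these shifts was not tested.

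Among the named members, only values that were not called changed sign under these alternatives. With age in Zmpste24-/- lungs Atp5e became 0.065 (quantile) and 0.025 (without high-Ucp1 arrays; -0.18 to 0.025 over single omissions), Ndufv1 0.065 (quantile), and Sdhb 0.018 (centring), 0.11 (quantile) and 0.0075 (without high-Ucp1 arrays; -0.21 to 0.12 over single omissions). Single omissions gave Sdha -0.10 to 0.15, Cox5a -0.62 to 0.050 and Ndufs1 -0.30 to 0.087. With age in WT lungs Sdha became -0.00602 (centring) and -0.064 (quantile), and -0.0034 to 0.031 over single omissions.

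With the replicate number as a block, the calls were 11 for age in WT, 7 for age in Zmpste24-/-, 17 for their difference, 7 and 2 for bleomycin in old and young Zmpste24-/- lungs, 3 and 8 for the genotypes after bleomycin at 16 weeks and among old mice, and 1 for the set 1 difference. Correlations between samples of the same number ran from -0.382 to 0.28, and no comparison had all 3 above 0.1, so the numbers were not taken as pairs. Array set as a random block could not be fitted, since each group lies in 1 set.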
